A study of Malus domestica with 6 samples.

Results

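Described here are 3 of the 63517 apple gene models measured, MDP0000893203, MDP0000231674 and MDP0000235028. They were taken by identifier because the paper gives them as putative negative regulators of the response to abscisic acid (ABA). MDP0000893203 and MDP0000231674 encode type 2C protein phosphatases (PP2C) with ABI2 of *Arabidopsis thaliana* as their homologue, and MDP0000235028 is *MdABR1*, a putative ortholog of *ABR1*. The seeds came from untreated adult Golden Delicious trees at 20 days after petal fall (DAPF). Libraries were made from 3 pools of seeds of central fruits and 3 pools of seeds of mid-sized lateral fruits, each pool combining different fruitlets, and lateral fruits are the ones more often shed from the cluster. According to the paper, lateral fruits are also younger, and it does not exclude a part of developmental stage in the differences. Fruit position and age cannot be told apart in these libraries. The names and roles are those given by the paper, since none of the 51804 genes of the RefSeq table at hand carries an apple MDP identifier. For the same reason no list of other ABA pathway genes, and no markers of seed coat, endosperm or embryo, could be set beside them. All 3 were in the paper's list of changed genes, which was drawn from these same libraries, so a difference in them is no independent support for their choice.

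ABA is the hormone of seed maturation and of the response to drought and other stress. In *A. thaliana*, PYR/PYL receptors that have bound ABA block the clade A PP2C phosphatases, of which ABI2 is one. Free phosphatases keep SnRK2 kinases dephosphorylated and inactive, whereas blocked phosphatases release the kinases, which then act on ABF and ABI5 transcription factors. ABR1 is a transcription factor of the AP2/ERF superfamily that acts against the ABA response in the same species. Transcripts of several clade A PP2C genes are themselves raised by ABA in *A. thaliana*.

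*MdABR1* is the only one of the 3 for which the study designed qRT-PCR primers, and they are shown as the sequences at hand for it. Their match to the gene model MDP0000235028 could not be checked here. They are written 5′ to 3′ with the last 5 bases, from which the polymerase extends, in capitals.
MdABR1 forward: acattaactacggcggAGGAT
MdABR1 reverse: tctctgtcccgaaacGACTT
The forward primer has 21 bases with a GC content of 47.6%, and the reverse primer has 20 bases. Values of qRT-PCR were not used here, and the levels that follow are those of RNAseq.

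All 3 genes were transcribed at a low level in every pool of central fruit seeds and at a several-fold higher level in every pool of lateral fruit seeds. Levels are given in RPKM, which divides the reads of a gene model by its length and by the size of its library, so they can be compared between genes. Whole reads were recovered from the values, and they add up to between 14238640 reads in lateral replicate 1 and 37767724 reads in lateral replicate 2, with central replicates between 21515775 and 30451293. Central replicates 1 to 3 and lateral replicate 3 were sequenced in lane 7 and lateral replicates 1 and 2 in lane 8, according to the names of the data columns. In such bulk samples a change in the cells that make up a seed and a change of RNA per cell cannot be told apart.

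MDP0000893203 stood at 1.21, 2.63 and 2.23 RPKM in the central pools 1, 2 and 3 and at 16.6, 12.1 and 15.6 RPKM in the lateral pools 1, 2 and 3. The central values rest on 35, 108 and 68 reads and the lateral ones on 319, 616 and 510 reads. No central library reached any lateral one, and the lowest lateral value was 4.60 times the highest central value. The gene model was 6.20-fold higher in lateral fruit seeds on the log2(RPKM + 0.5) scale, with a 95% confidence interval of 4.26 to 9.02 (limma, Benjamini-Hochberg adjusted p = 0.00063, 3 libraries against 3). In the same fit 3.39% of the 37230 gene models tested were called higher. A gene model was called where its adjusted p was no more than 0.05 and it differed 1.5-fold or more.

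MDP0000231674, the other PP2C gene model, stood at 1.18, 3.53 and 1.84 RPKM in the central pools, from 33, 139 and 54 reads. In the lateral pools it reached 10.1, 12.5 and 10.1 RPKM, from 187, 613 and 317 reads. It was the most uneven of the 3 among central pools and the most even among lateral pools, and its groups did not overlap either. On the log2(RPKM + 0.5) scale it was 4.53-fold higher in lateral fruit seeds, with a 95% confidence interval of 2.86 to 7.16 (limma, Benjamini-Hochberg adjusted p = 0.0038). With the sequencing lane as a term the log2 fold change of MDP0000231674 was 2.08 in place of 2.18 and its adjusted p from limma was 0.088, so that its call was lost. Lane 8 held lateral fruit seeds only, so that fit rests on lateral replicate 3 for the comparison.

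*MdABR1* was found at 1.74, 2.78 and 2.54 RPKM in the central pools, from 48, 109 and 74 reads. The lateral pools gave 26.8, 13.6 and 19.8 RPKM, from 490, 659 and 617 reads. It had the highest level of the 3 genes in every lateral library, and lateral replicate 1 stood 1.97 times above lateral replicate 2. In lateral replicate 2 the lead was small. The exact 95% Poisson interval of its reads there, from 12.6 to 14.6 RPKM, overlapped those of MDP0000231674 (11.6 to 13.6) and MDP0000893203 (11.2 to 13.1). On the log2(RPKM + 0.5) scale *MdABR1* was 7.04-fold higher in lateral fruit seeds, with a 95% confidence interval of 4.75 to 10.4 (limma, Benjamini-Hochberg adjusted p = 0.00058). With lane as a term *MdABR1* and MDP0000893203 stayed called, each at an adjusted p of 0.019 from limma.

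**Figure D1:**
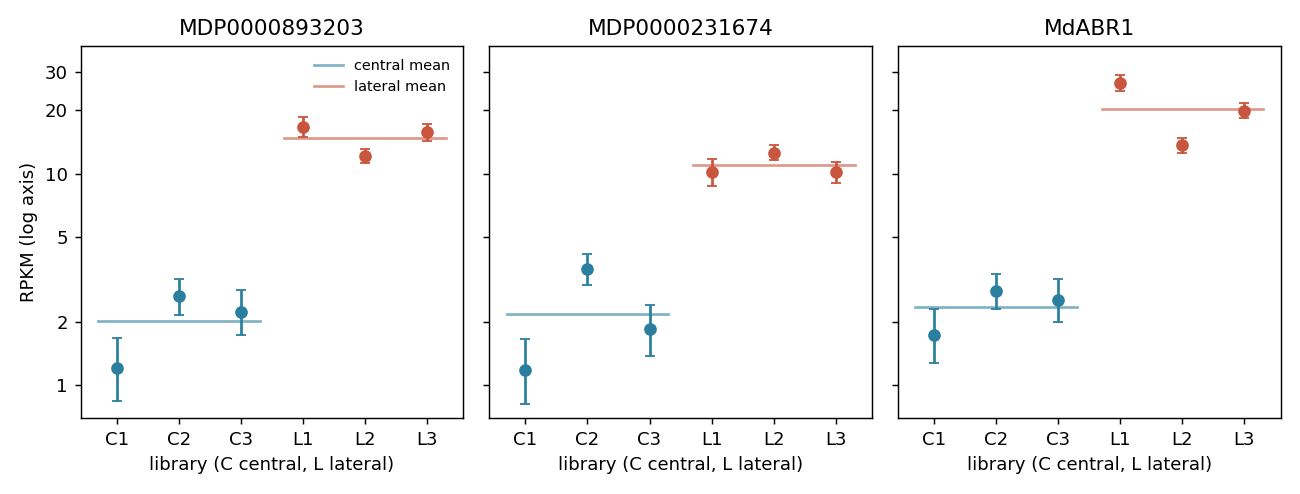
Level of each gene in RPKM (log axis) in the 3 central (C1 to C3) and 3 lateral (L1 to L3) libraries, with exact 95% Poisson intervals of the recovered reads as bars and group means as lines. Every lateral value lies above every central value in all 3 genes, and lateral replicate 1 of *MdABR1* is the highest of all at 26.8 RPKM.

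The pseudocount of 0.5 RPKM lowers these folds because the central levels are near 2 RPKM. As plain ratios of the means of 3 libraries, the lateral level was 7.31 times the central level for MDP0000893203, 5.005 times for MDP0000231674 and 8.52 times for *MdABR1*. Single pools set wide limits to such ratios. For *MdABR1* the smallest ratio of a lateral to a central library was 4.87 and the largest 15.4, and for MDP0000231674 they were 2.87 and 10.6. All 3 lateral values lay above all 3 central values in 12.4% of the gene models tested, so the absence of overlap by itself is common in these libraries.

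By their group means the 3 genes stood closer in rank in central than in lateral fruit seeds, but not in every pool. By its mean over central fruit seeds, MDP0000893203 stood above 58.2% of all 63517 gene models, MDP0000231674 above 59.1% and *MdABR1* above 59.9%. In lateral fruit seeds the shares below them were 82.2%, 78.4% and 86.0% in the same order. In rank, *MdABR1* moved from place 25486 to place 8921, MDP0000893203 from 26527 to 11281 and MDP0000231674 from 25972 to 13704. The ranks varied among pools too. In lateral fruit seeds *MdABR1* ran from place 6945 in replicate 1 to place 11792 in replicate 2, MDP0000893203 from 10402 to 12720 in the same libraries, and MDP0000231674 from 12405 in replicate 2 to 14464 in replicate 1. In lateral replicate 2 the 3 genes were close, above 80.0%, 80.5% and 81.4% of all gene models for MDP0000893203, MDP0000231674 and *MdABR1*. In central replicate 2 they stood above 60.6%, 63.8% and 61.2% in the same order. Shares over all 63517 also count gene models too low to be tested. Among the 37230 tested, the 3 genes stood above 19.8% to 38.2% in single central libraries and above 61.1% to 81.3% in single lateral ones. The central ranks rest on few reads. A single read added between 0.0243 and 0.0362 RPKM to these gene models in central libraries and between 0.0196 and 0.0546 RPKM in lateral ones.

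Among the gene models tested, 136 had a larger log2 fold change than *MdABR1*, 171 a larger one than MDP0000893203 and 297 a larger one than MDP0000231674. These are 0.365%, 0.459% and 0.798% of all tested. A rise of 4-fold or more on the same scale, reached by all 3 genes, was seen in 0.945% of the gene models tested. As the 3 were selected for their rise in these libraries, the places describe their size and nothing more.

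**Figure D2:**
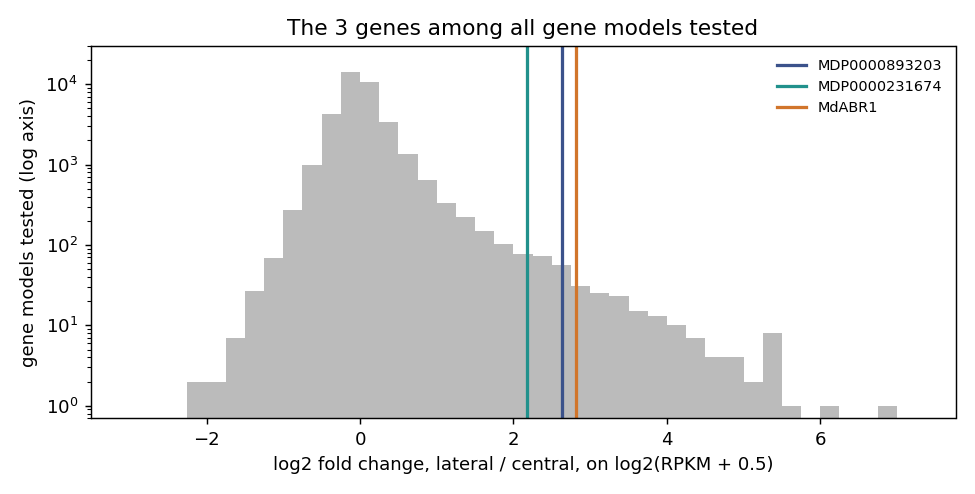
Number of gene models (log axis) by log2 fold change between lateral and central fruit seeds on the log2(RPKM + 0.5) scale, for all 37230 tested, with a vertical line at each of the 3 genes. The lines at 2.18, 2.63 and 2.82 stand in the upper tail, with 136 gene models above the highest of them.

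The summed signal of the PP2C gene models came to 2.39, 6.16 and 4.07 RPKM in the central pools 1, 2 and 3 and to 26.7, 24.6 and 25.7 RPKM in the lateral pools. The sum differed more among the central pools than among the lateral ones. Its coefficient of variation was 44.9% in central and 4.13% in lateral fruit seeds, where each gene model alone varied by 16.1% (MDP0000893203) and 12.7% (MDP0000231674). In lateral replicate 2, MDP0000893203 had its lowest and MDP0000231674 its highest lateral level, so the opposite deviations largely cancelled in the sum.

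MDP0000893203 held 50.4%, 42.7% and 54.7% of the summed PP2C RPKM in the central pools 1, 2 and 3. Its share was 62.1%, 49.1% and 60.7% in the lateral pools, and MDP0000231674 held the remainder. The groups overlapped, since lateral replicate 2 lay below central replicates 1 and 3. The mean share was 49.3% ± 6.08 (SD, n = 3) in the central and 57.3% ± 7.13 (SD, n = 3) in the lateral pools, a difference of 7.996 percentage points (exact permutation test, 2-sided p = 0.3, where 3 against 3 libraries allow no p below 0.1). A shift of the signal towards one copy between the types of seed was therefore not shown.

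Within lateral fruit seeds the shares differed by more than the counting error. The exact 95% binomial interval of the share of MDP0000893203, from 1229 PP2C reads in lateral replicate 2, ran from 46.3% to 51.9%. In lateral replicates 1 and 3 the intervals ran from 57.7% to 66.3% and from 57.3% to 64.1%, clear of the former. Central intervals were wide, as in central replicate 1, where 68 reads of both copies gave an interval of 38.1% to 62.8%. Such intervals cover counting error only. How the authors' program placed reads that match several gene models is not given in the sources used here, and if the copies share stretches of sequence their split is less certain than their sum.

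**Figure D3:**
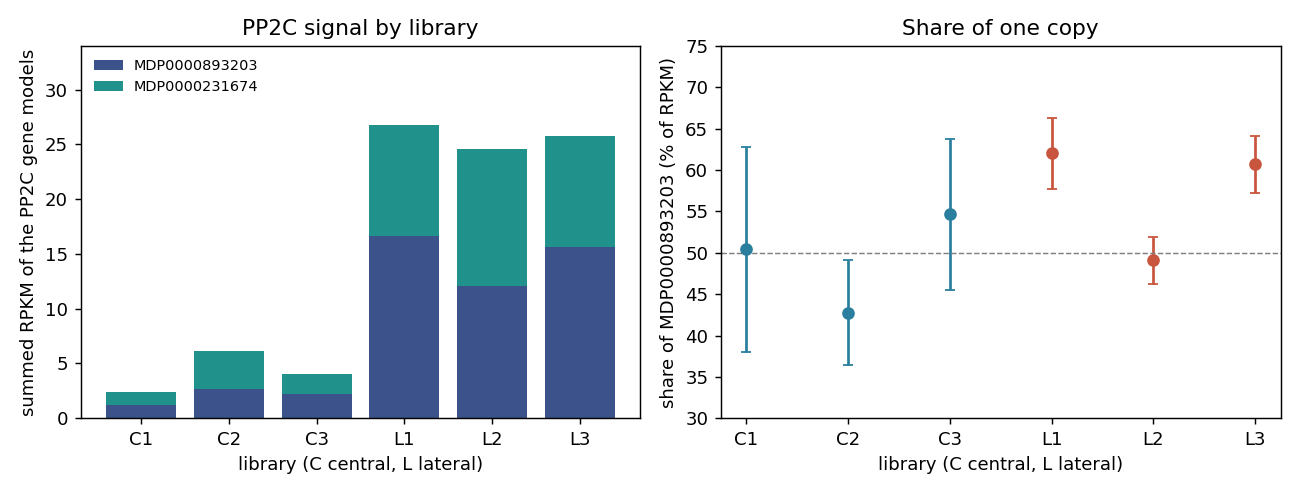
Left, RPKM of MDP0000893203 and MDP0000231674 stacked for each central (C1 to C3) and lateral (L1 to L3) library. Right, share of MDP0000893203 in that sum in percent with exact 95% binomial intervals of the reads and a dashed line at equal shares. The lateral sums lie between 24.6 and 26.7 RPKM, while the share falls to 49.1% in lateral replicate 2.

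*MdABR1* made up 42.1%, 31.1% and 38.5% of the RPKM of the 3 genes together in the central pools 1, 2 and 3 and 50.02%, 35.5% and 43.5% in the lateral pools. The mean share was 5.80 percentage points higher in lateral fruit seeds (exact permutation test, 2-sided p = 0.4, n = 3 each), within the spread of the pools. Its share was lowest in replicate 2 of each type of seed.

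Whether one gene rose more than another was tested on the log2 ratio of their values within each library, for the 3 possible pairs. The ratio of MDP0000231674 to *MdABR1* went from a mean of -0.16 ± 0.40 (SD, n = 3) in the central to -0.80 ± 0.63 (SD, n = 3) in the lateral pools. The difference was -0.64 (exact permutation test, 2-sided p = 0.3, and 0.4 after Benjamini-Hochberg adjustment over the 3 pairs). For MDP0000893203 against MDP0000231674 the difference was 0.45, and for MDP0000893203 against *MdABR1* it was -0.18, with adjusted p = 0.4 in each (exact permutation test, n = 3 each). This test cannot give a p below 0.1 with 3 libraries against 3, so it could not pass a threshold of 0.05 for any pair, and no order of the 3 fold changes is drawn from it. The differences leaned on single libraries. For MDP0000231674 against *MdABR1* the difference was -0.36 without lateral replicate 1 and -0.98 without lateral replicate 2, and for MDP0000893203 against MDP0000231674 it was 0.29 without central replicate 2 and 0.69 without lateral replicate 2. For MDP0000893203 against *MdABR1* it was -0.04 without lateral replicate 1 and -0.30 without lateral replicate 2.

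The 3 genes shared the order of their levels among the central pools, but not the direction of every deviation. Central replicate 1 was the lowest and central replicate 2 the highest for each of them. On the log2(RPKM + 0.5) scale the deviation of replicate 1 from the central mean was -0.52 for MDP0000893203, -0.58 for MDP0000231674 and -0.33 for *MdABR1*. In replicate 2 the deviations were 0.36, 0.68 and 0.22 in the same order. In replicate 3 they were 0.16, -0.10 and 0.11, so MDP0000231674 lay below its central mean there and the others above theirs. The same central order of the replicates, 1 below 3 below 2, occurred in 18.5% of all gene models tested and in 35.7% of the 1262 called higher in lateral fruit seeds. Central replicate 2 was also the deepest and central replicate 1 the shallowest of the central libraries, and the part of depth in this order was not tested.

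For the PP2C genes the spread of the central pools exceeded the counting error of the extremes. The exact 95% Poisson interval of MDP0000893203 ran from 0.840 to 1.68 RPKM in central replicate 1 and from 2.16 to 3.17 RPKM in central replicate 2. The intervals of MDP0000231674 ran from 0.816 to 1.66 RPKM and from 2.96 to 4.16 RPKM in the same libraries. For *MdABR1* they met, at an upper end of 2.301 RPKM in replicate 1 and a lower end of 2.29 RPKM in replicate 2. Intervals that meet do not place a difference within counting error, so this does not set *MdABR1* apart from the PP2C genes. The SD of log2(RPKM + 0.5) among the central pools was 0.63 for MDP0000231674, larger than in 96.4% of the gene models tested. It was 0.46 for MDP0000893203 and 0.29 for *MdABR1*, against a median of 0.17 over all gene models tested.

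Among the lateral pools the genes parted. MDP0000893203 and *MdABR1* were highest in lateral replicate 1 and lowest in lateral replicate 2, with deviations in replicate 2 of -0.27 and -0.50 from the lateral mean on the log2(RPKM + 0.5) scale. MDP0000231674 was highest in lateral replicate 2, with a deviation of 0.20. Its levels in lateral replicates 1 and 3 differed by less than the counting error. The order shared by MDP0000893203 and *MdABR1*, 2 below 3 below 1, was found in 50.4% of the gene models called higher in lateral fruit seeds and in 23.1% of all tested. Over the gene models called higher the median deviations were 0.18, -0.17 and -0.02 in lateral replicates 1 to 3, in the direction of *MdABR1* in replicates 1 and 2. Lateral replicate 1 was the shallowest and lateral replicate 2 the deepest of all libraries, and the part of depth was not tested.

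*MdABR1* had the widest lateral spread of the 3, with an SD of 0.48 on the log2 scale, larger than in 90.2% of the gene models tested. Its Poisson intervals in lateral replicates 1 to 3, from 24.4 to 29.2, from 12.6 to 14.6 and from 18.3 to 21.5 RPKM, did not meet. The lateral pools thus differed from each other in *MdABR1* beyond counting error.

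**Figure D4:**
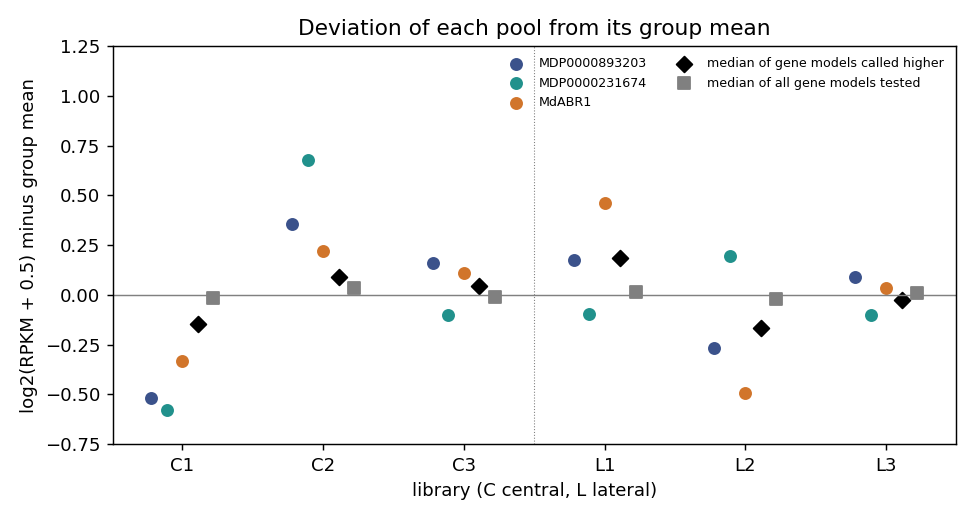
Deviation of each library from the mean of its type of seed, in log2(RPKM + 0.5), for the 3 genes (circles), for the median of the 1262 gene models called higher in lateral fruit seeds (diamonds) and for the median of all tested (squares). The 3 genes lie together below 0 in central replicate 1 and above 0 in central replicate 2. MDP0000231674 goes the other way from the remaining genes in central replicate 3 and in each lateral replicate.

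Over all 6 libraries the log2(RPKM + 0.5) values of MDP0000893203 and *MdABR1* had a Pearson r of 0.99, those of the PP2C genes 0.97 and those of MDP0000231674 and *MdABR1* 0.94. These coefficients are descriptions, because the libraries fall into central and lateral clusters and the difference between clusters sets most of the value. The gene models most like the mean profile of the 3 genes over the 6 libraries were MDP0000221889 and MDP0000181915, each with a Pearson r of 0.999. MDP0000221889 was a low gene model, at 0, 0.207 and 0.139 RPKM in the central pools and 1.18, 0.972 and 1.08 RPKM in the lateral pools. Its central values rest on only 0, 6 and 3 reads and its lateral values on 16, 35 and 25 reads. MDP0000181915 stood at 5.75, 12.3 and 8.46 RPKM in the central pools and at 57.7, 46.0 and 47.5 RPKM in the lateral pools. The data give no names for either. In all, 351 other gene models (0.943% of those tested) were at least as close to the mean profile as MDP0000231674, the least close of the 3, with an r of 0.98. The mean profile contains the 3 genes themselves, which raises their own r but not that of other gene models.

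The paper names 9 further genes of hormone synthesis, breakdown, transport and response by identifier, and they were read in the same limma fit. Of these, 5 were called higher and 2 lower in lateral fruit seeds, and 2 were not called, against 3.39% called higher and 0.459% called lower among all gene models tested. Their median log2 fold change was 1.48, and -0.02 over all tested. In 3 of the 9 the log2 fold change was larger than that of *MdABR1*, and in 5 it was smaller than that of MDP0000231674. The paper chose many of these genes on the same libraries, so the counts are a description of that list.

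The increase of the 3 genes was kept under nearly all settings of the test. With other pseudocounts, filters, scalings and variance models, with voom on the recovered reads, and with any single library removed, the log2 fold change of MDP0000893203 stayed between 2.37 and 2.86. That of MDP0000231674 ran from 1.89 to 2.52 and that of *MdABR1* from 2.59 to 3.06, and each of these fits called the gene. Their calls ended in 2 settings. One was lane as a term, for MDP0000231674. The other, for all 3 genes, was Baggerly's test, rebuilt approximately and compared with a t distribution (chosen after seeing the data). That version called 0 of the 37230 gene models, with 790 at an unadjusted p under 0.05. These are fewer than would pass that limit if no gene model differed, so this version is conservative. The lowest values for the PP2C genes came without central replicate 1, the pool in which both were lowest.

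**Figure D5:**
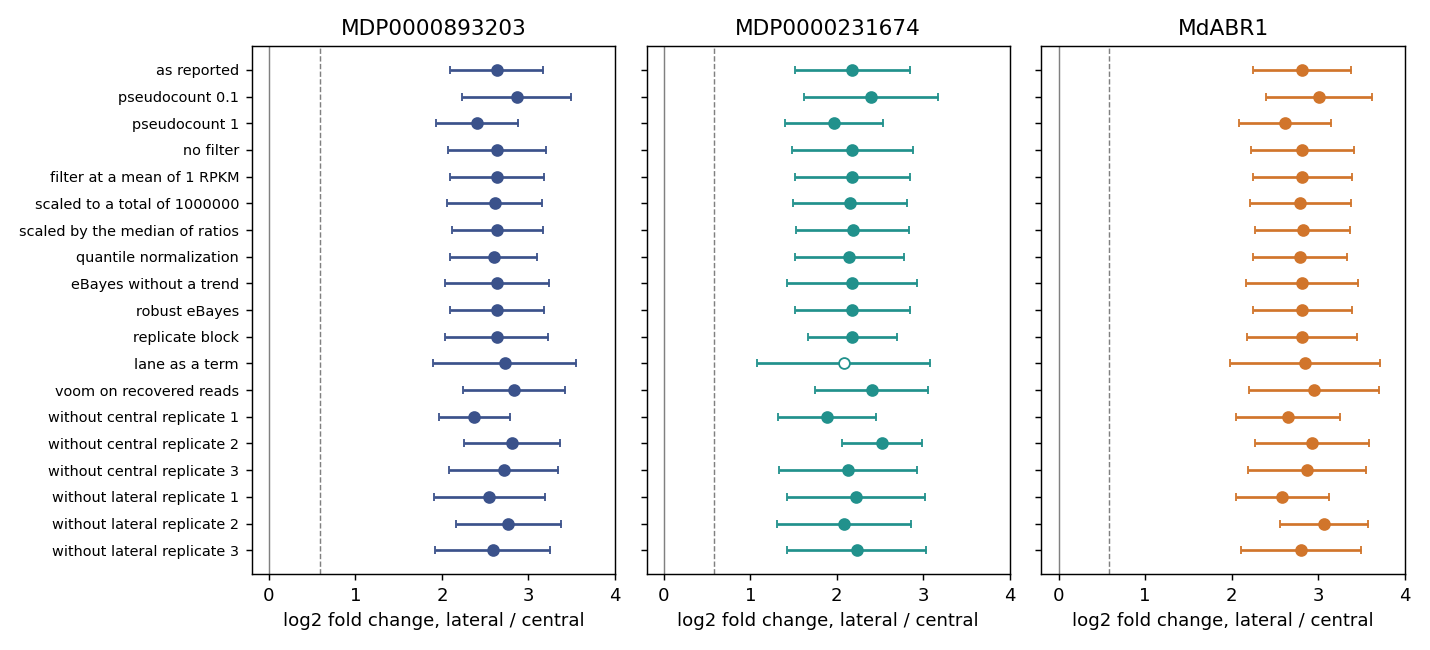
Log2 fold change of each gene between lateral and central fruit seeds with its 95% confidence interval from limma, as reported and under 18 other settings. Filled points passed an adjusted p of 0.05 and a fold change of 1.5 (dashed line), and the one open point is MDP0000231674 with lane as a term, at 2.08.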

How the data were processed

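RNA from 3 pools of central and 3 pools of lateral fruit seeds of Golden Delicious was sequenced as single-end reads. The deposited RPKM values were made by the authors, who checked the reads with FastQC, trimmed and aligned them to version 1.0 of the apple genome and counted them per gene model with the CLC Genomics Workbench, whose release is not given in the sources used here. All data columns were matched to samples.

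Gene models whose central or lateral mean reached 0.5 RPKM were tested with limma 3.58.1 (R 4.3.3), with lmFit and eBayes with a trend on log2(RPKM + 0.5) and Benjamini-Hochberg adjustment over all 37230. Nothing in the labels pairs the replicates, which are pools of different fruitlets, so p-values measure the spread between pools. The members and lists were chosen with earlier results of these data known. Named genes are the 3 members and the 2 gene models with the highest Pearson r to their mean standardized profile.

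Reads were recovered as the smallest gene length, searched between 60 and 30000 bases, that turned the RPKM of every library into whole reads (within 0.001 reads) given the mapped reads that the study lists. A length was found for all 55261 gene models above 0, and 97.4% of these lengths are multiples of 3, as coding lengths are. A length can be a fraction of the true one where all reads of a gene model share a divisor. The lengths were 1341 bases for MDP0000893203, 1287 for MDP0000231674 and 1278 for *MdABR1*. The main limma fit, Baggerly's test and the recovery of reads were tried on simulated data that held no lane effect. The shares, ranks, pairwise ratios and the fit with lane as a term were not tried in this way. Other summaries were made in Python 3.11.15 with scipy 1.17.1, numpy 2.4.6 and pandas 2.3.3. Figures were drawn with matplotlib 3.10.9. Alternatives were other pseudocounts (0.1 and 1), filters, scalings and variance models, the lane or the replicate number as a term, each library left out, voom on recovered reads and Baggerly's test on RPKM proportions. The last is the kind of test that the study used, rebuilt here only approximately (a normal reference, with a variance floor from the RPKM totals).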

Additional observations from a re-analysis of the deposited data

How the results depend on the processing

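The fold changes of the 3 genes, the differences in their pairwise ratios and the difference in the share of MDP0000893203 kept their direction under each alternative run for them. The other descriptions were not recomputed. Baggerly's test, rebuilt here only approximately after the test that the study used, with a variance floor from the RPKM totals and a normal reference, called all 3 genes, with 537 gene models higher and 45 lower in all. Compared with a t distribution on its estimated degrees of freedom, chosen after seeing the data, it called 0 of 37230, and so none of the 3 genes. With 790 at an unadjusted p under 0.05, fewer than if no gene model differed, this version was conservative. The log2 ratios of proportions in Baggerly's test were 2.84 for MDP0000893203, 2.29 for MDP0000231674 and 3.06 for *MdABR1*. In limma, 1262 gene models were called higher and 171 lower. With lane as a term these were 392 and 39, and MDP0000231674 at 2.08 was no longer called (adjusted p = 0.088 from limma, at most 0.019 in its other limma fits). Without the filter 112 were lower. The replicate number as a block gave 1035 higher and 96 lower, the same log2 fold changes of the 3 genes and no lost call among them. Same-numbered libraries did not deviate together, with correlations of 0.01, -0.12 and -0.13 over gene models, and central replicates 2 and 3 correlated best with another number. With each library left out in turn, between 875 and 1151 gene models were called higher and between 93 and 141 lower, and the difference in the share of MDP0000893203 was between 4.71 and 12.1 percentage points, lowest without central replicate 2 and highest without lateral replicate 2. The central levels rest on 33 to 139 reads per gene and library.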
